A study of Mus musculus with 15 samples.

Results

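The proteasome genes described here are the subunits of the proteasome and the proteins that bind it directly, which mouse gene nomenclature groups under the prefix Psm followed by a letter from a to g and a number. The rule went by that symbol, among probe sets that carry a single gene symbol, and used no measured value to admit a gene. It was set with earlier results of these data known. The rule found 47 genes of the 19938 named on the arrays, with 1 probe set per gene, the one whose mean over the 15 arrays was highest. Psmd13, a lid subunit, was left out because it lies next to Sirt3, the gene that was knocked out. By role the 47 genes were 19 of the core particle, 16 of the regulatory particle and 12 accessory proteins.

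The tissue was gastrocnemius, the large and mainly fast-fibred calf muscle, taken from male C57BL/6 mice at the age of 12 months. There were 3 wildtype mice on the control diet, 4 wildtype mice under calorie restriction (CR), 4 Sirt3 knockout mice on the control diet and 4 Sirt3 knockout mice under CR, with 1 mouse per array. Sirt3 encodes a mitochondrial NAD-dependent deacetylase. The sources used here do not give how the knockout allele was made, whether it was limited to some tissues, or the degree and length of the restriction. All values are log2 intensities after RMA, a procedure that corrects background, equalises the distributions of the arrays and summarises the probes of a probe set. The comparisons ask how proteasome transcripts responded to CR in each genotype, whether loss of Sirt3 altered that response, and what separated the genotypes under a given diet.

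The proteasome is the main protease of the cytosol and nucleus. Its core particle is a barrel of alpha and beta rings whose catalytic beta subunits face an inner chamber. The regulatory particle caps the barrel: its base holds a ring of ATPases that unfold substrates, and its lid removes ubiquitin chains. In skeletal muscle the system degrades myofibrillar and short-lived proteins, and its activity is known to be raised during wasting.

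The labels and the tissue were checked first. Sirt3 read 6.38 to 6.68 (median 6.51) on the 7 wildtype arrays and 4.94 to 6.19 (median 5.46) on the 8 knockout arrays, so the genotypes did not overlap. The mean of 10 skeletal muscle markers, all 10 found, lay between 12.51 and 12.69 on every array. It was 12.51 to 12.56 in wildtype control, 12.53 to 12.69 in wildtype CR, 12.57 to 12.67 in knockout control and 12.59 to 12.67 in knockout CR muscle. Of these markers Mylpf was called higher for CR in wildtype muscle (0.50, SE 0.09, adjusted p = 0.0489 by limma). Mylpf and Pvalb were called higher for CR averaged over genotypes. Array medians over all probe sets lay between 5.40 and 5.48. Some arrays also carried transcripts of other tissues. The sperm protamine Prm1 read 11.82 on wildtype control array 3 and 11.40 on knockout control array 1, against 6.38 to 9.17 on the other 13 arrays. The mean of the 12 male germ cell markers, all 12 found, ranged from 5.36 to 9.79 in wildtype control, 4.89 to 6.23 in wildtype CR, 5.12 to 9.24 in knockout control and 4.90 to 5.92 in knockout CR muscle. Pancreatic acinar markers (7 of 9 found) averaged between 5.83 and 12.36 on the wildtype control arrays and between 5.11 and 5.39 on all others. Liver markers (8 of 9 found) averaged 6.84 to 8.86 in wildtype control and 7.06 to 9.84 in wildtype CR muscle. In knockout muscle they averaged 6.63 to 8.97 on the control diet and 6.98 to 8.03 under CR. Adipocyte markers (5 of 6 found) averaged 6.37 to 6.94 in wildtype control, 6.17 to 7.87 in wildtype CR, 6.60 to 7.20 in knockout control and 6.73 to 8.08 in knockout CR muscle, and their median CR difference was 0.54 in wildtype and 0.60 in knockout muscle. The part of these transcripts in the results below was not tested. Counts of proteasome genes at an unadjusted p are also given without the arrays that carried most of the germ cell transcripts. These 2, with wildtype control array 2 (pancreatic mean 12.36) and wildtype CR array 4 (liver mean 9.84), are the 4 arrays with other tissues below. Fits without the 4 are not free of other tissues. Liver markers still averaged 8.86 on wildtype control array 1, 8.97 on knockout control array 2 and 8.03 on knockout CR array 1.

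Of the 47 genes, 44 passed the filter on low values (a mean of at least 5.32) and were tested: 17 core, 16 regulatory and 11 accessory. The 3 others were Psma8, a germ cell alpha subunit with a mean of 4.06, Psmb11, the thymus catalytic subunit with a mean of 4.71, and the core assembly chaperone Psmg3, whose mean lay just under the filter value. All 47 matched RefSeq by gene identifier with no change of symbol. Near-identical copies of some subunit genes exist in the mouse genome, and a probe set may read them too, which could not be tested here. In muscle tissue as a whole, fewer cells of a type and less RNA per cell cannot be told apart.

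**Figure D1:**
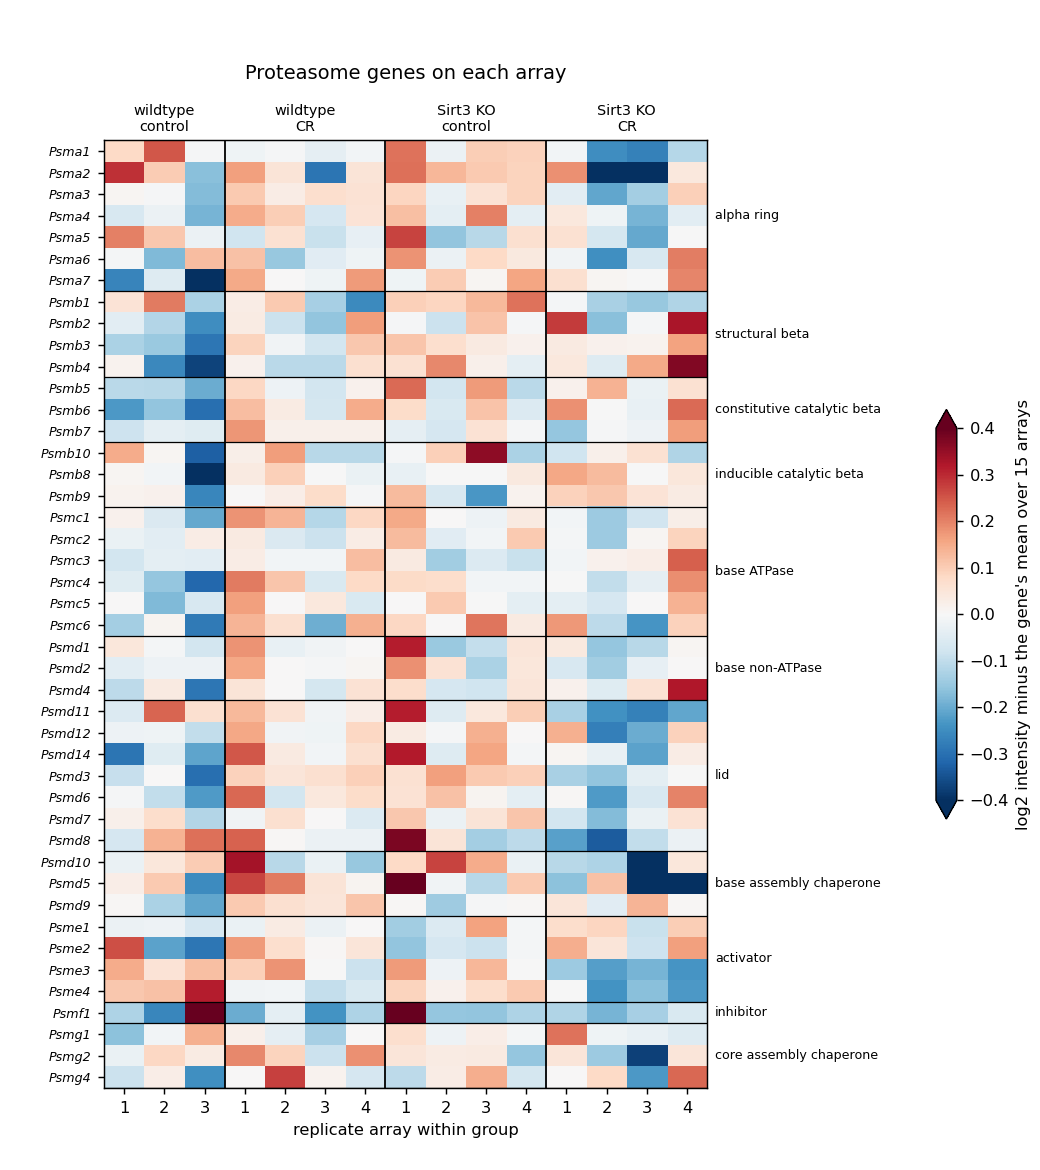
Log2 intensity of each of the 44 proteasome genes tested on the 15 arrays, minus the gene's own mean over all arrays, with genes ordered by role and arrays by group, and values past the colour scale drawn at its ends. Psmf1 is far above its mean on wildtype control array 3 and knockout control array 1, Psme4 is above its mean on the control arrays, and many core genes are below theirs on wildtype control array 3.

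The promoters of 4 genes with results below are shown because 3 of them (Psma7, Psmb6 and Psmb3) had the smallest unadjusted p for CR in wildtype muscle and the remaining one, Psme4, passed the threshold. Each stretch runs 5′ to 3′ from 220 bases before to 20 bases after the RefSeq transcription start (GRCm38.p6). Capitals mark matches to 3 motifs searched on both strands: TGACNNNGC, the core of the antioxidant element bound by NRF1 and NRF2, of which NRF1 (gene Nfe2l1) drives proteasome genes, CCAAT, bound by NF-Y, and a GAAA pair spaced by NN, the interferon-stimulated response element. Psma7 lies at chr2:180042445-180042684 on the minus strand, Psme4 at chr11:30771555-30771794, Psmb6 at chr11:70525137-70525376 and Psmb3 at chr11:97703214-97703453, all 3 on the plus strand.
Psma7: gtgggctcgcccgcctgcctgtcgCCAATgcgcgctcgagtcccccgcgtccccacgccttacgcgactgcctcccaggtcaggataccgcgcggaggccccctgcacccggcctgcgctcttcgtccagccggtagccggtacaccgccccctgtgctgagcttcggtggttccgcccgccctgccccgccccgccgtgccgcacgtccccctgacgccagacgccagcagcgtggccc
Psme4: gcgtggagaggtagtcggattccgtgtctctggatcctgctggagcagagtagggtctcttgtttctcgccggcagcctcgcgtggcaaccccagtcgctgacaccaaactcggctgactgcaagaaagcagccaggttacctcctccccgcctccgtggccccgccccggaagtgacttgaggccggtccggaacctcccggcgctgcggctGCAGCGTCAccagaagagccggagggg
Psmb6: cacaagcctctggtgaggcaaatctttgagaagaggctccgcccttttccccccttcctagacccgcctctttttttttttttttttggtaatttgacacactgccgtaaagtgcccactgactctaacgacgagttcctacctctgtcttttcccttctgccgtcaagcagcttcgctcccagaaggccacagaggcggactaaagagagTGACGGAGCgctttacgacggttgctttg
Psmb3: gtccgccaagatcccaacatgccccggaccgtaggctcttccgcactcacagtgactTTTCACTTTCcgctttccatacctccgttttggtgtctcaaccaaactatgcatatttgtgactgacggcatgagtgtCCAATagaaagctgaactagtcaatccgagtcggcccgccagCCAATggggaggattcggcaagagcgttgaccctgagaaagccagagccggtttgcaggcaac

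Psma7 has CCAAT starting 196 bases before the start, and Psmb3 has it at 85 and 43 bases and the GAAA pair on the other strand at 163 bases. TGACNNNGC begins 9 bases before the start of Psmb6. On the other strand of Psme4 the match begins 7 bases before the start and runs across it. Promoters of 300 bases were given for 39 of the 47 genes, 42 promoters in all. TGACNNNGC occurred in 6 of these 42 promoters (Psmb5, Psmb6, Psmc6, Psmd12, Psmd9 and Psme4) and in 12.4% of all 32851 promoters of that length. CCAAT occurred in 14 of the 42 and in 37.4% of all, and the GAAA pair in 5 of the 42 and in 3.44% of all. A match describes the letters in this window and no binding.

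CR averaged over the 2 genotypes is the one comparison in which a proteasome gene passed the threshold. Psme4 (probe set 10374934), which encodes the proteasome activator PA200, a large single-chain cap of the core particle, was lower under CR in both genotypes. It read 10.13, 10.14 and 10.34 on the wildtype control arrays and 10.01, 10.01, 9.93 and 9.97 on the wildtype CR arrays. In knockout muscle it read 10.12, 10.04, 10.10 and 10.13 on the control diet and 10.02, 9.79, 9.86 and 9.80 under CR. Every CR array lay below every control array of its own genotype. Psme4 fell by 0.23 on the log2 scale (SE 0.05, adjusted p = 0.0461, limma with Benjamini-Hochberg adjustment over 12056 genes), to 0.854 of the control level. The difference was -0.22 (SE 0.07) in wildtype and -0.23 (SE 0.07) in knockout mice, with adjusted p of 0.201 and 0.221.

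This call rests on a small margin. It was kept in 2 of the 15 fits that each left out 1 array, those without wildtype control array 1 and without knockout CR array 1, and the adjusted p ran from 0.0315 to 0.0914. Wildtype control array 3, one of the germ cell arrays, held the highest Psme4 value of all. Without it the difference was -0.19 (adjusted p = 0.0914 by limma), and without both germ cell arrays -0.19 (adjusted p = 0.0984). Without the 4 arrays with other tissues named above the difference was -0.19.

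Among the 44 genes tested for CR averaged over genotypes, 0 were called higher and 1 lower, against 0.647% and 0.423% of all genes. At an unadjusted p under 0.05, 5 were higher (13.7% of all genes) and 5 lower (6.4%). The 5 higher were Psma7, Psmb3, Psmb6, Psmc3 and Psmd9, and the 5 lower were Psma1, Psmb1, Psmd11, Psme3 and Psme4. The median difference of the 44 was 0.01, beside 0.03 over all genes, and 23 lay above 0, beside 59.5% of all genes. The count of 5 higher ran from 2 without wildtype control array 3 (8.63% of all genes) to 8 without wildtype control array 1 (16.6%) and was 3 without both germ cell arrays (7.82%). It was also 3 without wildtype CR array 1 (11.5% of all genes) or wildtype CR array 4 (12.9%). The same count came without knockout control array 3 (13.4%), knockout control array 4 (13.7%) or knockout CR array 4 (12.5%). The median without wildtype control array 3 was -0.0032. Psma1, an alpha ring subunit, had the next smallest adjusted p, 0.0963, at -0.19 (SE 0.05).

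CR in wildtype muscle gave no call among the 44 proteasome genes. By limma with Benjamini-Hochberg adjustment 0 passed in either direction, where 0.108% of all genes were called higher and 0.0166% lower. At an unadjusted p under 0.05, 7 were higher (Psma7, Psmb3, Psmb6, Psmc4, Psmd14, Psmd3 and Psmd9), beside 9.72% of all genes. Psme4 alone was lower, beside 3.4% of all genes. In 12 genes every CR array lay above every control array, beside 9.55% of all genes, and in 1, Psme4, below (2.95%). The median difference was 0.11 over the 44 and 0.04 over all genes, and 31 of the 44 lay above 0, beside 62.3% of all genes. Without wildtype control array 3 the count of 7 became 4, beside 4.84% of all genes, and the median was 0.07, beside 0.02 over all genes. Without the 4 arrays with other tissues it was 2, beside 4.75%, and 1 wildtype control array was left.

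Psma7 (probe set 10490370), an alpha ring subunit, had the smallest unadjusted p in this comparison. It read 7.62, 7.83 and 7.37 on the wildtype control arrays and 8.03, 7.88, 7.86 and 8.05 under CR. The groups did not overlap, and the lowest value was on wildtype control array 3. The difference was 0.35 (SE 0.10, adjusted p = 0.172), and 0.23 without that array. In knockout muscle Psma7 read 7.87 to 8.04 on the control diet and 7.88 to 8.08 under CR, which overlap almost wholly. Its difference there was 0.00 (SE 0.09, adjusted p = 0.988).

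Psmb6, the constitutive subunit with caspase-like activity, read 8.89, 8.96 and 8.81 in wildtype control muscle and 9.24, 9.15, 9.05 and 9.27 under CR. The difference was 0.29 (SE 0.08, adjusted p = 0.181), with no overlap. Its knockout arrays, 9.19, 9.06, 9.23 and 9.06 on the control diet and 9.30, 9.12, 9.09 and 9.34 under CR, overlapped.

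Psmb3, a structural beta subunit, read 11.11, 11.09 and 10.95 in wildtype control muscle and 11.33, 11.23, 11.17 and 11.35 under CR. These groups did not overlap either, and the difference was 0.22 (SE 0.07, adjusted p = 0.200). In knockout muscle it read 11.35, 11.31, 11.28 and 11.26 on the control diet and 11.28, 11.26, 11.26 and 11.40 under CR. Without the 4 arrays with other tissues the wildtype difference was 0.13. For each of Psma7, Psmb6 and Psmb3 the 3 wildtype control arrays were the lowest of all 15.

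**Figure D2:**
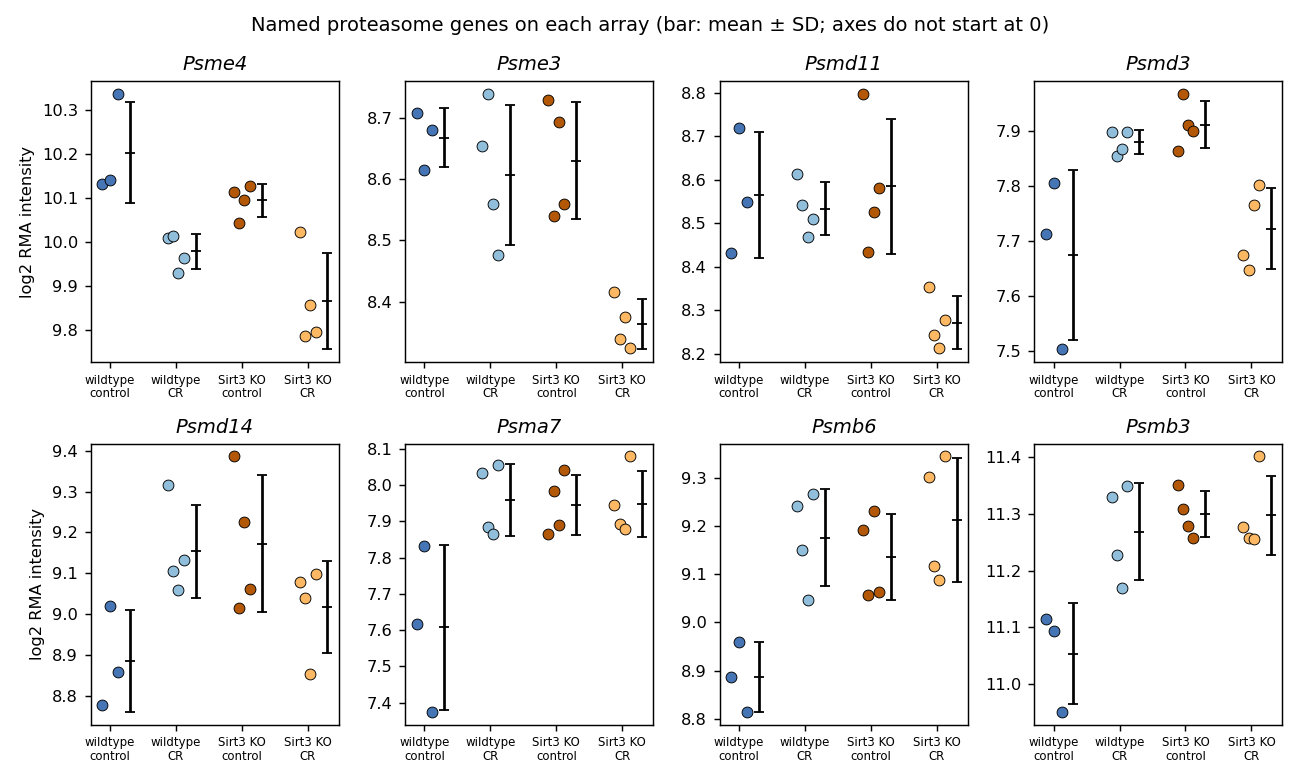
Log2 intensity of the named proteasome genes on each array, grouped by genotype and diet, with points for arrays and bars for the group mean ± SD (n = 3 for wildtype control, n = 4 for each other group). Psme4 is lower under CR in both genotypes, while Psma7, Psmb6 and Psmb3 are low on the wildtype control arrays alone.

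CR in knockout muscle gave 0 calls in either direction, where 0.00829% of all genes were called higher and 0.0581% lower. At an unadjusted p under 0.05, 0 of the 44 were higher (6.79% of all genes) and 8 were lower (5.17%). The 8 were Psma1, Psmb1, Psmd10, Psmd11, Psmd3, Psmd5, Psme3 and Psme4. In 5 of them (Psmb1, Psmd11, Psmd3, Psme3 and Psme4) every CR array lay below every control array, beside 3.08% of all genes, and in 0 above (3.91%). The median difference was -0.09, beside 0.01 over all genes, and 14 of the 44 lay above 0, beside 53% of all genes. Without knockout control array 1, the germ cell array in this comparison, the median was -0.04 (0.00 over all genes), and 7 genes were lower at the unadjusted level, beside 5.81% of all genes. Groups without overlap were then lower in 5 genes (5.77% of all genes) and higher in 2 (5.29%). The median was -0.04 without knockout CR array 2 and -0.05 without knockout CR array 3.

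Psme3 encodes a nuclear activator of the core particle that works without ubiquitin. In knockout muscle it read 8.73, 8.54, 8.69 and 8.56 on the control diet and 8.42, 8.34, 8.38 and 8.32 under CR, with no overlap. The difference was -0.27 (SE 0.07, adjusted p = 0.184). In wildtype muscle the control arrays, 8.71, 8.62 and 8.68, lay within the range of the CR arrays, 8.65, 8.74, 8.56 and 8.48, and the difference was -0.06.

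Psmd11, a lid subunit known to promote assembly of the complete proteasome, showed a like pattern of values. Its knockout arrays read 8.80, 8.43, 8.53 and 8.58 on the control diet and 8.35, 8.24, 8.21 and 8.28 under CR. The 4 knockout CR values were the lowest of all 15, and the difference was -0.31 (SE 0.08, adjusted p = 0.202). The wildtype arrays read 8.43, 8.72 and 8.55 on the control diet and 8.61, 8.54, 8.47 and 8.51 under CR, overlapping, with a difference of -0.03.

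The difference between the 2 CR responses, the interaction, gave 0 calls among all 12056 genes by limma (0% in both directions), of which 689 had an unadjusted p under 0.05. Of the 44 proteasome genes, 0 were higher at that level (1.33% of all genes) and 10 were lower (4.39%): Psma3, Psma4, Psma7, Psmb3, Psmc1, Psmc4, Psmd11, Psmd14, Psmd3 and Psmd5. In this comparison 38 of the 44 lay below 0, and 6 above, beside 43.1% of all genes above. The median was -0.14, beside -0.03 over all genes. The count of 10 moved with single arrays. It was 2 without wildtype control array 3 (3.39% of all genes), 3 without wildtype CR array 1 (3.47%), 3 without knockout CR array 3 (3.39%), 4 without knockout control array 1 (6.20%), 5 without knockout CR array 2 (3.72%) and 2 without both germ cell arrays (4.37%). With array weights it was 4 (4.66%), with probe sets averaged per gene 8 (4.47%) and with quantile normalization again 7 (3.61%). With 1 array left out the median lay between -0.18 and -0.12 and between 36 and 39 genes were below 0. Above 0 were 5 to 8 genes in those fits, beside 39.5% to 48.0% of all genes. With quantile normalization again 34 were below 0 and 10 above, beside 47.3% of all genes above. Without the 4 arrays with other tissues 32 were below 0 and 12 above, beside 44.1% of all genes above. That fit left 1 wildtype control array.

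Psmd3 (probe set 10380986), a scaffold subunit of the lid, had the smallest unadjusted p for the interaction. It read 7.71, 7.81 and 7.50 in wildtype control muscle and 7.90, 7.85, 7.87 and 7.90 under CR. It read 7.86, 7.97, 7.91 and 7.90 in knockout control muscle and 7.67, 7.65, 7.77 and 7.80 under CR. CR arrays lay above control arrays in wildtype and below them in knockout muscle, each without overlap. The CR differences were 0.21 (SE 0.07, adjusted p = 0.239) and -0.19 (SE 0.07, adjusted p = 0.287), and the interaction was -0.39 (SE 0.10, adjusted p = 0.687). Of 12056 genes 6, or 0.0498%, showed this arrangement without overlap, and 3 showed the opposite one. Without wildtype control array 3 the interaction was -0.31.

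Psmd14, the lid deubiquitinase that removes chains from substrates, read 8.78, 9.02 and 8.86 in wildtype control and 9.32, 9.11, 9.06 and 9.13 in wildtype CR muscle. It read 9.39, 9.02, 9.23 and 9.06 in knockout control and 9.08, 9.04, 8.85 and 9.10 in knockout CR muscle. Control and CR arrays did not overlap in wildtype muscle and did in knockout muscle. The interaction was -0.42 (SE 0.14, adjusted p = 0.824). The base assembly chaperone Psmd5 had the largest interaction in size, -0.51 (SE 0.21, adjusted p = 0.828), from CR differences of 0.18 in wildtype and -0.33 in knockout muscle.

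**Figure D3:**
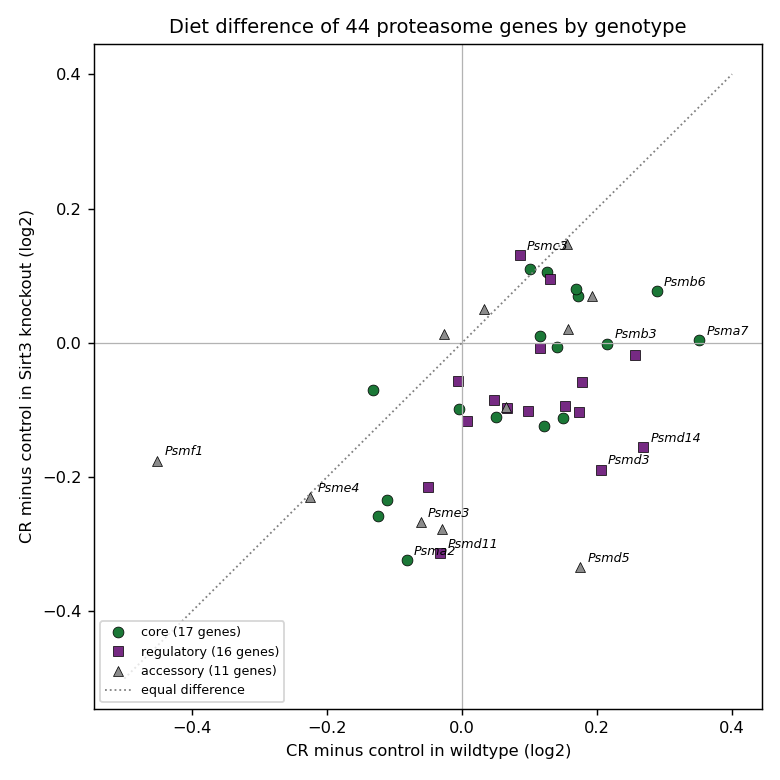
CR minus control in knockout (vertical axis) against CR minus control in wildtype muscle (horizontal axis), in log2 units, for the 44 proteasome genes tested, with 1 point per gene coloured by core, regulatory and accessory role. Most points (38 of 44) lie below the line of equal differences, and no interaction passed the threshold.

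Knockout against wildtype on the control diet shares the 3 wildtype control arrays with CR in wildtype and with the interaction, so these comparisons are not independent. By limma 0 of the 44 and 0% of all genes passed in either direction. At an unadjusted p under 0.05, 8 were higher in knockout (5.08% of all genes), namely Psma7, Psmb3, Psmb4, Psmb5, Psmb6, Psmc4, Psmd14 and Psmd3, and 0 lower (1.94%). The difference was 0.34 (SE 0.10, adjusted p = 0.599) for Psma7, 0.25 (SE 0.07, adjusted p = 0.599) for Psmb3 and 0.24 (SE 0.07, adjusted p = 0.599) for Psmd3. Without wildtype control array 3 Psma7 gave 0.22 and Psmd3 0.15, and the count of 8 became 5 (3.14% of all genes). It became 3 without both germ cell arrays (4.28%). In 6 genes every knockout array lay above every wildtype array, beside 3.71% of all genes, and in Psme4 below (1.29%). Without both germ cell arrays 6 again lay above, beside 11.9% of all genes. The median was 0.09, beside 0.02 over all genes, and 36 of the 44 lay above 0, beside 57.6% of all genes. It was 0.05 without wildtype control array 3 and 0.04 without both germ cell arrays or the 4 arrays with other tissues.

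Under CR, knockout was compared with wildtype between CR arrays, while the spread behind the tests came from all 15 arrays. By limma 0 of the 44 passed, where 0% of all genes were called higher and 0.0166% lower. At an unadjusted p under 0.05, 0 were higher (2.58% of all genes) and 4 lower (3.34%): Psmd11, Psmd3, Psmd5 and Psme3. In 3 of these, Psmd11, Psmd3 and Psme3, every knockout array lay below every wildtype array (2.76% of all genes), and in 0 above (1.84%). The difference was -0.24 (SE 0.07, adjusted p = 0.626) for Psme3 and -0.26 (SE 0.08, adjusted p = 0.698) for Psmd11. The median was -0.05, beside -0.01 over all genes, and lay between -0.09 (without knockout CR array 4) and -0.03 (without knockout CR array 2 or wildtype CR array 1) with 1 array left out. The count of 4 was 2 without wildtype CR array 1 (2.51% of all genes). Over all such fits it lay between 2 and 6 (2.11% to 4.54%). It was 5 when the CR groups alone were fitted (4.97%) and 7 with each array centred on its median (4.53%). With array weights the count was 10 (6.64%).

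Averaged over diets, knockout against wildtype gave 0 calls among the 44 and among all genes (0%), of which 866 had an unadjusted p under 0.05. Among the 44, 4 were higher (4.33%) and 2 lower (2.85%), Psme3 and Psme4, at that level. Without wildtype control array 3 these counts were 2 (2.77%) and 1 (4.34%), and without both germ cell arrays 2 (4.21%) and 5 (4.66%). With 1 array left out the lower count lay between 1 and 4, beside 1.89% to 4.34% of all genes.

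Core and regulatory subunits were compared by their medians, as a description. Under CR in wildtype muscle the medians were 0.12 for 17 core and 0.11 for 16 regulatory subunits, beside 0.04 over all genes. Above 0 were 12 and 13 of them, beside 62.3% of all genes. Under CR in knockout muscle the medians were -0.01 and -0.10, beside 0.01 over all genes. Below 0 were 10 core and 14 regulatory subunits, and above 0 were 7 and 2, beside 53% of all genes above. All 7 lid subunits lay below 0 there, with a median of -0.16 (Psmd6 was at 0.0099 without knockout CR array 2), and 6 of the 7 alpha subunits did, with a median of -0.11. The constitutive catalytic subunits were near 0, at a median of 0.01. For the interaction 15 of 17 core and 15 of 16 regulatory subunits lay below 0, with medians of -0.13 and -0.18. All 7 lid subunits did, at -0.24. Over all genes the interaction median was -0.03, and 43.1% of them lay above 0.

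By role, the CR medians in wildtype and knockout muscle ran as follows. The 6 ATPases of the base, Psmc1 to Psmc6, had medians of 0.13 and -0.04, from -0.01 for Psmc2 to 0.26 for Psmc4 in wildtype and from -0.10 for Psmc6 to 0.13 for Psmc3 in knockout muscle. The ubiquitin receptor and scaffold subunits of the base, Psmd1, Psmd2 and Psmd4, had medians of 0.07 and -0.09. The 7 lid subunits went from -0.05 for Psmd8 to 0.27 for Psmd14 in wildtype and from -0.31 for Psmd11 to -0.06 for Psmd6 in knockout muscle. In the core, the 7 alpha subunits had a wildtype median of -0.00, spanning -0.13 for Psma5 to 0.35 for Psma7, and the 4 structural beta subunits had medians of 0.15 and 0.03. The 3 base assembly chaperones, Psmd5, Psmd9 and Psmd10, had medians of 0.18 and -0.28, and Psmd9 was the one of them above 0 in knockout muscle, at 0.07. No subunit named in these ranges passed the threshold.

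Per array, the 17 core genes averaged -0.08 ± 0.11 (SD, n = 3) in wildtype control, 0.01 ± 0.06 (SD, n = 4) in wildtype CR, 0.05 ± 0.04 (SD, n = 4) in knockout control and 0.00 ± 0.08 (SD, n = 4) in knockout CR muscle, relative to each gene's mean over the 15 arrays. The 16 regulatory genes averaged -0.06 ± 0.05, 0.04 ± 0.07, 0.04 ± 0.07 and -0.04 ± 0.10 in the same order and numbers. Arrays of one group were spread as widely as the groups were apart, except that both averages were below 0 on all 3 wildtype control arrays and above 0 on all 4 knockout control arrays. The lowest core average, -0.21, was that of wildtype control array 3.

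**Figure D4:**
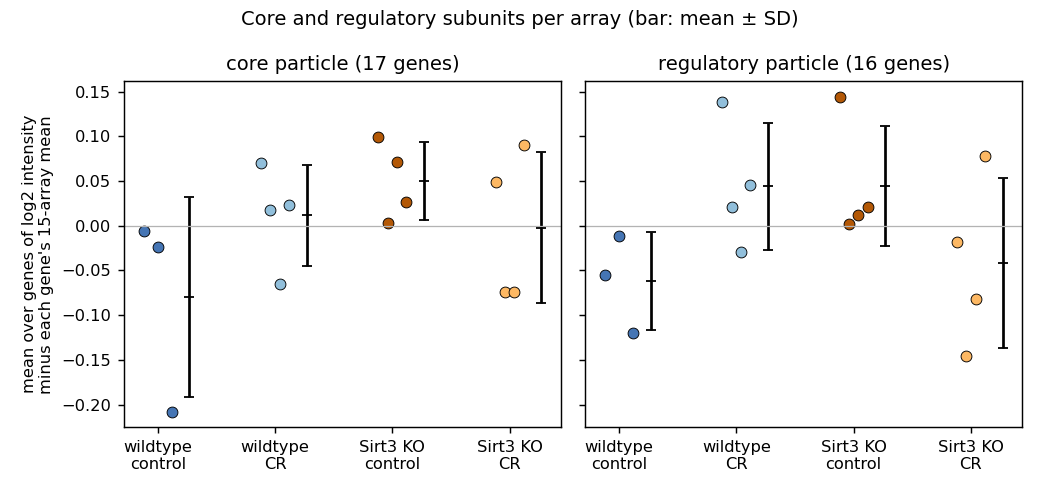
Mean over 17 core genes and over 16 regulatory genes on each array, as log2 intensity minus each gene's 15-array mean, by group, with bars for the group mean ± SD (n = 3 or 4). Wildtype control arrays lie below 0 and knockout control arrays above it in both panels, and the CR arrays of both genotypes spread across 0.

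The catalytic subunits set which peptide bonds are cut. The chymotrypsin-like subunit Psmb5 read 10.45 ± 0.05 (SD, n = 3) in wildtype control, 10.59 ± 0.07 (SD, n = 4) in wildtype CR, 10.64 ± 0.17 (SD, n = 4) in knockout control and 10.63 ± 0.07 (SD, n = 4) in knockout CR muscle. Its CR differences were 0.14 and -0.01. The trypsin-like subunit Psmb7 read 9.04 ± 0.02, 9.16 ± 0.08, 9.08 ± 0.05 and 9.09 ± 0.13 in that order, with CR differences of 0.12 and 0.01.

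The inducible subunits replace them in the immunoproteasome of immune and interferon-treated cells. Psmb8 read 5.65 to 5.83 on all arrays but wildtype control array 3, where it read 5.25, and its CR differences were 0.17 in wildtype and 0.08 in knockout muscle. Psmb9 gave CR differences of 0.10 and 0.11, and Psmb10 of 0.05 and -0.11. Without wildtype control array 3 the wildtype differences were 0.027 for Psmb8, 0.0083 for Psmb9 and -0.08 for Psmb10. None of the 3 passed an unadjusted p of 0.05 in either genotype. The mean of 11 leukocyte and macrophage markers, all 11 found, ranged from 6.33 to 6.69 in wildtype control, 5.94 to 6.26 in wildtype CR, 6.17 to 6.57 in knockout control and 5.78 to 6.44 in knockout CR muscle, and its part in these values was not tested.

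Psme1 and Psme2 form the interferon-inducible activator that opens the core particle. Psme1 averaged between 7.89 and 7.97 in the 4 groups, and its CR differences were 0.03 and 0.05. Psme2 averaged between 7.65 and 7.81, with CR differences of 0.16 in wildtype and 0.15 in knockout muscle. Its wildtype difference was -0.18 without the 4 arrays with other tissues. Together with Psme3 and Psme4, the 4 activators thus did not share a direction. The core assembly chaperones had CR differences of -0.03 and 0.01 for Psmg1, 0.07 and -0.09 for Psmg2 and 0.16 and 0.02 for Psmg4. Psmg3, below the filter, averaged 5.32, 5.19, 5.27 and 5.48 in the 4 groups.

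Psmf1, the proteasome inhibitor PI31, and Psma8 had the widest spread between arrays of one group. Psmf1 read 7.34, 7.20 and 8.75 in wildtype control, 7.26, 7.42, 7.22 and 7.34 in wildtype CR, 8.10, 7.31, 7.31 and 7.34 in knockout control and 7.34, 7.28, 7.33 and 7.40 in knockout CR muscle. Psma8 read 5.42 on wildtype control array 3 and 4.89 on knockout control array 1, against 3.76 to 4.12 on the other 13. The high arrays of both genes were the 2 with the most Prm1. The wildtype CR difference of Psmf1 was -0.45 (SE 0.29) with all arrays and 0.04 without wildtype control array 3. Psmb11 read 4.45 to 4.85 on all 15 arrays.

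**Figure D5:**
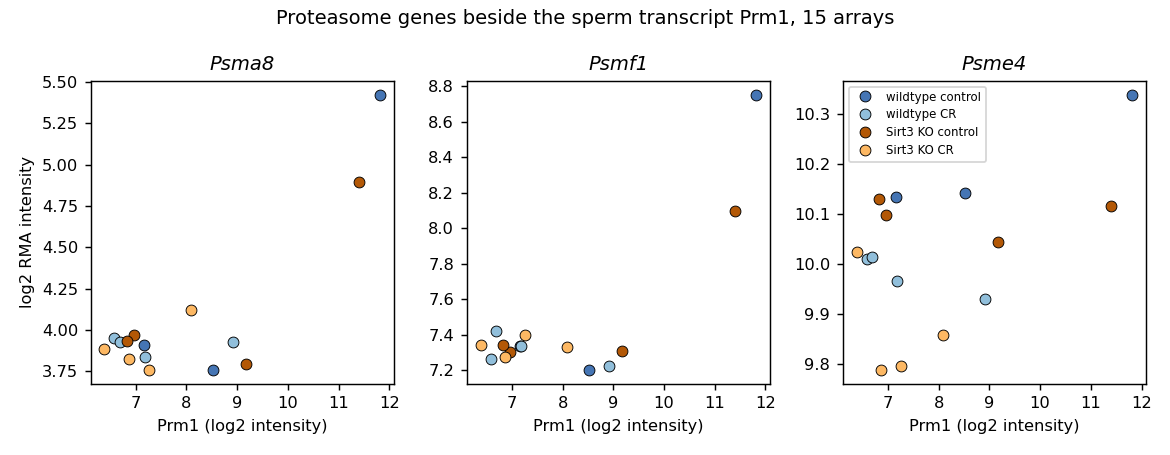
Log2 intensity of Psma8, Psmf1 and Psme4 (vertical axes) against that of the sperm transcript Prm1 (horizontal axes) on the 15 arrays, with 1 point per array coloured by group. Wildtype control array 3 and knockout control array 1 lie far to the right and are the highest for Psma8 and Psmf1, while Psme4 on knockout control array 1 (10.12) lies among the other control arrays.

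Other genes of the ubiquitin and proteasome pathway were followed as lists. Of 9 tested assembly and capacity factors, 12 substrate shuttles and proteasome-bound deubiquitinases and 11 genes of ubiquitin and its activation, 0 passed in any of the 7 comparisons by limma. For CR averaged over genotypes 1, 0 and 4 of them had an unadjusted p under 0.05, beside 20.1% of all genes. Their medians were -0.04, 0.0045 and -0.01, beside 0.03 over all genes. Nfe2l1, the transcription factor that drives proteasome genes when proteolysis is short, read 9.62 to 9.70 in knockout control and 9.41 to 9.59 in knockout CR muscle, without overlap. The difference was -0.15 (SE 0.05, adjusted p = 0.289). In wildtype muscle it read 9.55 to 9.65 on the control diet and 9.50 to 9.58 under CR, which overlap. Of 14 genes listed as muscle ubiquitin ligases, 1 was called lower and 0 higher for CR averaged over genotypes. The median of the 14 in that comparison was 0.10, beside 0.03 over all genes. An unadjusted p under 0.05 was reached by 4 of them, beside 20.1% of all genes. The gene called was Klhl40, which encodes a muscle Kelch protein, at -1.05 on the log2 scale (SE 0.20, adjusted p = 0.0329 by limma). Whether that protein acts as a ligase was not tested. The call for Klhl40 was lost in 12 of the 15 fits that each left out 1 array (adjusted p from 0.00557 to 0.0807), and it was kept without wildtype control array 1, wildtype CR array 4 or knockout control array 4. It was also lost without both germ cell arrays (adjusted p = 0.0823), without the 4 arrays with other tissues and with no filter on low values (adjusted p = 0.0599). Its CR difference was -0.57 (SE 0.30, adjusted p = 0.423) in wildtype and -1.53 (SE 0.28, adjusted p = 0.0566) in knockout muscle, and the interaction was -0.96 (SE 0.41, adjusted p = 0.832).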

How the data were processed

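Gastrocnemius RNA of 15 male mice was read on Affymetrix arrays, each mouse on its own array. The deposited values are log2 intensities that the authors made with RMA, per the submitters' processing notes. The RMA version and any day of scanning or hybridisation do not appear in the sources used here, and no batch was tested. Groups came from genotype and diet in the labels.

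Of 35556 probe sets, 21789 had 1 gene symbol in the platform annotation, 1621 carried several and were dropped, while 12146 are unnamed here. Each of the 19938 genes took its brightest probe set by mean, and genes under the 40th percentile of 23410 listed probe sets, 5.32, were left out, leaving 12056. The fit used limma 3.58.1 (lmFit and eBayes, 1 mean per group, all arrays together) under R 4.3.3. Contrasts were two-sided with Benjamini-Hochberg adjustment over all genes tested and a threshold of 0.05. Errors beside differences are moderated standard errors. The fit was tested on simulated data. A log2 difference of 1 was called in 97% of changed genes for CR in wildtype and in 85% for the interaction. A difference of 0.5 was called in 69% for CR in wildtype and in 82% for CR averaged over genotypes. It was called in 66% for knockout against wildtype on the control diet and in 43% for the interaction. Figures were drawn with matplotlib 3.10.9 in Python 3.11.15, and promoters are RefSeq's, GRCm38.p6.

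The members, lists and tests were chosen with earlier results of these data known. Genes named are those past the threshold, the 3 with the smallest unadjusted p in each of 4 comparisons (CR in each genotype, the interaction, knockout against wildtype on the control diet), and members of set roles (catalytic, activators, inhibitor, chaperones, tissue-restricted). Other lists contribute up to 3 genes each. Psma1, Psmd5, Psmf1 beside Prm1 and Nfe2l1 were also singled out after their values were seen. Alternatives were no filter, a stricter filter (60th percentile), probe sets averaged per gene, quantile normalization, median centring, a trended robust prior, array weights, a fit limited to the groups compared, a replicate block, and leaving out single arrays or the 2 or 4 arrays with other tissues. Testing each probe set singly, and the core minus regulatory medians under these settings, were added after the data were seen.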

Additional observations from a re-analysis of the deposited data

Results flagged for a closer look

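Of 141 sets of 4 arrays (47 genes in the groups of 4), 12 held an array set apart from the other 3 by more than 0.829 of the range of the group, where chance gives about 1 in 20. Values below are that gap as a share of the range.

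Wildtype CR array 1 was highest for Psmb7 (0.985, reading 9.27 against 9.12 for each of the others), Psmd2 (0.919), Psmd8 (0.898) and Psmd1 (0.858). Knockout CR array 4 was highest for Psmb3 (0.856) and Psmc3 (0.856). Knockout control array 1, which carried germ cell transcripts, was highest for Psmf1 (0.955, reading 8.10 against 7.31 to 7.34) and Psma8 (0.839, reading 4.89 against 3.79 to 3.97). Psmg1 was highest on knockout CR array 1 (0.866). Psmd9 was lowest on knockout control array 2 (0.93), Psmg2 on knockout control array 4 (0.922) and Psme1 on knockout CR array 3 (0.864).

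In Psmd3 the CR and control arrays did not overlap in either genotype, with CR higher in wildtype and lower in knockout muscle. The interaction was -0.395 on the log2 scale, with an unadjusted p of 0.00103 and an adjusted p of 0.687 by limma.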

How the results depend on the processing

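Under the alternatives run, 0 of the 44 genes were called in any setting for the other 6 comparisons. For CR averaged over genotypes the 1 call, Psme4, became 0 when no filter was used, 0 when both germ cell arrays were left out and 0 when the 4 arrays with other tissues were. Leaving out 1 array gave between 0 and 2 calls. The 2, without wildtype control array 1, were Psme4 and Psme2 (0.24, adjusted p = 0.0370). With the replicate number as a block the count was 0 (Psme4 -0.22, adjusted p = 0.0947). Same-numbered arrays did not deviate together (median r 0.010, from -0.64 to 0.50), and 2 of 15 arrays correlated best with an array of their own number, so the numbers were not taken as pairs. Of 61 differences of named genes, 13 changed sign in some setting. None of the 13 was past the threshold.

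The core minus regulatory median for CR in wildtype, 0.0153, was -0.065 without the 4 arrays. For CR in knockout, 0.089, it was 0.024 after quantile normalization and 0.031 to 0.11 with 1 array left out. For the interaction, 0.049, it was 0.11 with array weights and 0.0067 to 0.11 with 1 array left out. For knockout against wildtype on the control diet, 0.046, it was -0.0021 with array weights and -0.016 to 0.061 with 1 array left out. The median over all members ran from 0.07 to 0.14 for CR in wildtype, from -0.12 to -0.04 for CR in knockout and from -0.18 to -0.11 for the interaction. Leaving out the 4 arrays left 1 wildtype control array, assumed to vary like the other groups. Redoing RMA was not run, since it needs scanner files. The causes were not tested. Groups of 3 or 4 mice bound the precision of every difference.

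The sign changes were as follows. With 1 array left out, CR in knockout ran from -0.039 to 0.036 for Psma7, -0.060 to 0.051 for Psmb5, -0.047 to 0.060 for Psmb7, -0.049 to 0.041 for Psmg1, -0.049 to 0.10 for Psmg4 and -0.13 to 0.0099 for Psmd6. CR in wildtype ran from -0.099 to 0.044 for Psmd11, -0.085 to 0.15 for Psmb10, -0.10 to 0.050 for Psmg1, -0.73 to 0.042 for Psmf1, -0.025 to 0.016 for Psmc2 and -0.13 to 0.012 for Psmd8. With array weights CR in knockout was -0.024 for Psma7 and 0.062 for Psmb5, and CR in wildtype -0.024 for Psmb10, 0.025 for Psmg1, 0.015 for Psmc2 and 0.013 for Psmd8. With arrays centred on their medians CR in knockout was -0.028 for Psma7, -0.022 for Psmb7, -0.019 for Psmg1 and -0.011 for Psmg4. When both germ cell arrays were left out CR in knockout was -0.022 for Psma7, 0.051 for Psmb5 and -0.015 for Psmg4, and the same without the 4, while CR in wildtype was -0.085 for Psmb10, 0.050 for Psmg1, 0.042 for Psmf1, 0.016 for Psmc2 and 0.012 for Psmd8. Without the 4, CR in wildtype was 0.11 for Psmd11, -0.12 for Psmb10, -0.18 for Psme2, 0.12 for Psmg1 and 0.14 for Psmd8.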

Other observations

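Among the 47, 5 proteasome genes had more than 1 probe set, and they did not always read alike. For Psmb3 the other probe set gave a CR difference of 0.30 (SE 0.10) in wildtype and 0.11 in knockout muscle, beside 0.22 in wildtype muscle for the one reported. For Psmc1 the other probe set gave 0.00 in wildtype and -0.21 in knockout muscle. The other probe set of Psma5 gave -0.0033 for CR in wildtype muscle, beside -0.13 for the one reported. Its interaction was -0.07, beside 0.06 for the one reported.

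Several of the genes lie close together in RefSeq's order of genes: Psmb5 and Psmb11 are neighbours, Tap1 lies between Psmb9 and Psmb8, and Emc9 between Psme1 and Psme2.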
